A study of Mus musculus with 42 samples.

Results

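The cytotoxic effector genes described here are Gzma, Gzmb, Gzmk, Gzmm, Prf1, Nkg7, Ifng and Fasl, taken by symbol from a table of 47729 mouse genes. Each of the 8 symbols had 1 row, and all 8 passed the filter on low values (at least 10 in at least 3 libraries), which left 16613 genes to test. The values come from bulk RNA-seq of Pan02 tumours, a mouse pancreatic adenocarcinoma line grown under the skin of the right flank. The series is described as one in C57BL/6 mice, and its injection protocol names C57BL/6J beside Balb/c hosts. Every animal carried such a tumour. Age and sex were not given in the sources used here. Treated mice received BXCL701 (talabostat), an inhibitor of dipeptidyl peptidases including DPP4, DPP8, DPP9 and fibroblast activation protein, at 20 ug per mouse by daily oral gavage. Of the BXCL701 tumours, those of day 1 were taken 1, 8 and 16 h after a single dose. Those of days 7 and 14 were taken at 4 hours each (0, 1, 8 and 16 h). Control mice received vehicle, named in the protocol as PBS, and their tumours were taken at 0 h only, on days 1, 7 and 14. The 14 groups hold 3 animals each, 42 libraries in all, and each library is a separate animal. Vehicle tumours were lacking at 1, 8 and 16 h. Harvest hour and treatment therefore cannot be told apart in comparisons that pool the hours or use these hours singly.

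Cytotoxic T cells and natural killer (NK) cells kill by releasing lytic granules toward a target cell. Perforin, encoded by Prf1, opens pores through which granzymes, a family of serine proteases, enter and set off cell death, while Fas ligand (Fasl) kills by binding the death receptor Fas. The same cells secrete interferon gamma (Ifng), which raises antigen presentation in tumour cells and macrophages.

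By the GENCODE M21 annotation of GRCm38, all 8 are protein-coding genes. Gzma (ENSMUSG00000023132) spans chr13:113093825-113100981 and Gzmk (ENSMUSG00000042385) spans chr13:113171608-113225908, both on the minus strand of the same region. Gzmb (ENSMUSG00000015437) spans chr14:56258838-56262260 on the minus strand, beside the other granzyme genes Gzmc to Gzmg and Gzmn. Gzmm (ENSMUSG00000054206) lies at chr10:79689020-79695261, Prf1 (ENSMUSG00000037202) at chr10:61297833-61304680 and Ifng (ENSMUSG00000055170) at chr10:118441046-118445892, all on the plus strand. Nkg7 (ENSMUSG00000004612) lies at chr7:43437073-43438249 on the plus strand, and Fasl (ENSMUSG00000000817) at chr1:161780689-161788495 on the minus strand. Of the 50-base stretches in its transcripts, Ifng shared 19.9% with Gm49751, an overlapping gene on the same strand that the annotation lists as awaiting experimental evidence, so its reads could be split, whereas the other 7 members shared 0%. Esm1 lies in a Gzmk intron on the opposite strand.

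The promoters of the 3 genes called higher on day 14 (Gzma, Gzmk and Prf1) are printed with those of Gzmb, which was not called, and Gzmm, which was lower on that day. Each is the stretch of 150 bases before the RefSeq transcript start on GRCm38.p6, read 5′ to 3′ on the gene's strand. For Gzmk, Prf1 and Gzmb the bases right after this start were not found in the gene's GENCODE transcripts. The Gzmk stretch lies inside the span given above for that gene. Capitals mark matches, on either strand, to 4 motifs of factors known to act on effector genes: the T-box core TCACAC, the RUNX motif TGTGGT, the STAT motif TTCNNNGAA and the AP-1 motif TGANTCA. In the stretches shown no match overlaps another.
Gzma, chr13:113100982-113101131, minus strand: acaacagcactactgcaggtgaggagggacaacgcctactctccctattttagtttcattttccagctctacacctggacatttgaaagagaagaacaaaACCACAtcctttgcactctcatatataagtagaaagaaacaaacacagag
Gzmk, chr13:113180966-113181115, minus strand: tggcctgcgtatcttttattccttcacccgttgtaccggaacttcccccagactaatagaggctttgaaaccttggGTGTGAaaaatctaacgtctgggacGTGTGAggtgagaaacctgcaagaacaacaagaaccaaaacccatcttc
Prf1, chr10:61297686-61297835, plus strand: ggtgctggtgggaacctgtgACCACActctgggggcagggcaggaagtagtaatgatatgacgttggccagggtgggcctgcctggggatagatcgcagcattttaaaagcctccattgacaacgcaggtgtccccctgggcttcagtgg
Gzmb, chr14:56262335-56262484, minus strand: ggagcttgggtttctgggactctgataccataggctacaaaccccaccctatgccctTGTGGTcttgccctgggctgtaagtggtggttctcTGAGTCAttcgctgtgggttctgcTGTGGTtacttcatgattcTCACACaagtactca
Gzmm, chr10:79688870-79689019, plus strand: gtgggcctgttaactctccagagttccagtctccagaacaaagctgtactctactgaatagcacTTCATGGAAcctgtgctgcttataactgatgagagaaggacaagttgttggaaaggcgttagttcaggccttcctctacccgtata

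In windows of 250 bases before the start, the T-box core occurred 2 times for Gzmk and 1 time for Gzmb, and was not found for Gzma or Prf1. The RUNX motif occurred 2 times for Gzmb and 1 time each for Gzma, Prf1 and Gzmm. Gzmm has another RefSeq promoter, chr10:79693576-79693825, which is not printed and held the T-box core 1 time. No motif was found for all 3 of the genes called higher, and Gzma and Prf1 both held the RUNX motif. Among 32851 promoters of this length, 12.3% held the T-box core, 14% the RUNX motif, 7.02% the STAT motif and 6.75% the AP-1 motif. These matches are a description of the letters and not of binding.

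The deposited values are not whole numbers and look scaled, so the sequencing depth is unknown and no counting interval is given. The libraries correlated with each other at 0.871 to 0.981, so none looked like a repeat deposit of another. 4 libraries lay at the ends of an index of whether long or short transcripts were relatively high. They were vehicle day 1 replicate 2 (-0.37), vehicle day 7 replicate 2 (0.33), BXCL701 day 7 0 h replicate 2 (0.33) and BXCL701 day 7 8 h replicate 3 (-0.41), and none is from day 14.

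Per length, Nkg7 was the highest of the 8 genes. Nkg7 encodes a membrane protein of lytic granules, and its mean over the 42 libraries was 13.6 FPKM (fragments per kilobase of transcript, scaled to library size). Gzmb followed at 3.30 FPKM, Prf1 at 2.20 FPKM, Gzma at 1.61 FPKM, Gzmk at 1.07 FPKM, Ifng at 1.03 FPKM, Fasl at 0.55 FPKM and Gzmm at 0.41 FPKM. The low members were near the floor of the table in many tumours. Gzmm reached a scaled value of 10 in 16 of 42 libraries, Gzma in 26, Ifng in 33, Gzmk in 34 and Fasl in 36, against 42 of 42 for Gzmb, Prf1 and Nkg7. Of the 3 vehicle tumours of day 14, 0 reached it for Gzmk.

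Across the 14 groups, vehicle day 14 had the lowest mean log2(value + 1) for Gzma, Gzmb, Gzmk, Prf1, Nkg7 and Fasl. The highest group differed by gene. It was BXCL701 day 14 at 1 h for Gzma (5.81 ± 0.61, SD, n = 3), BXCL701 day 14 at 0 h for Gzmk (4.68 ± 0.60) and BXCL701 day 7 at 8 h for Prf1 (7.22 ± 0.50) and Nkg7 (8.17 ± 0.87). For Ifng (5.29 ± 0.50) and Fasl (4.97 ± 0.19) it was BXCL701 day 7 at 16 h, and for Gzmb it was BXCL701 day 1 at 1 h (7.19 ± 0.50). Gzmm had its highest mean in vehicle day 1 (3.95 ± 0.58) and its lowest in BXCL701 day 1 at 1 h (1.78 ± 1.05). Of the 13 steps between neighbouring groups in each gene's order, 1 was larger than both groups' SD for Gzma, Gzmm and Nkg7, and 0 for the other 5 genes.

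**Figure D1:**
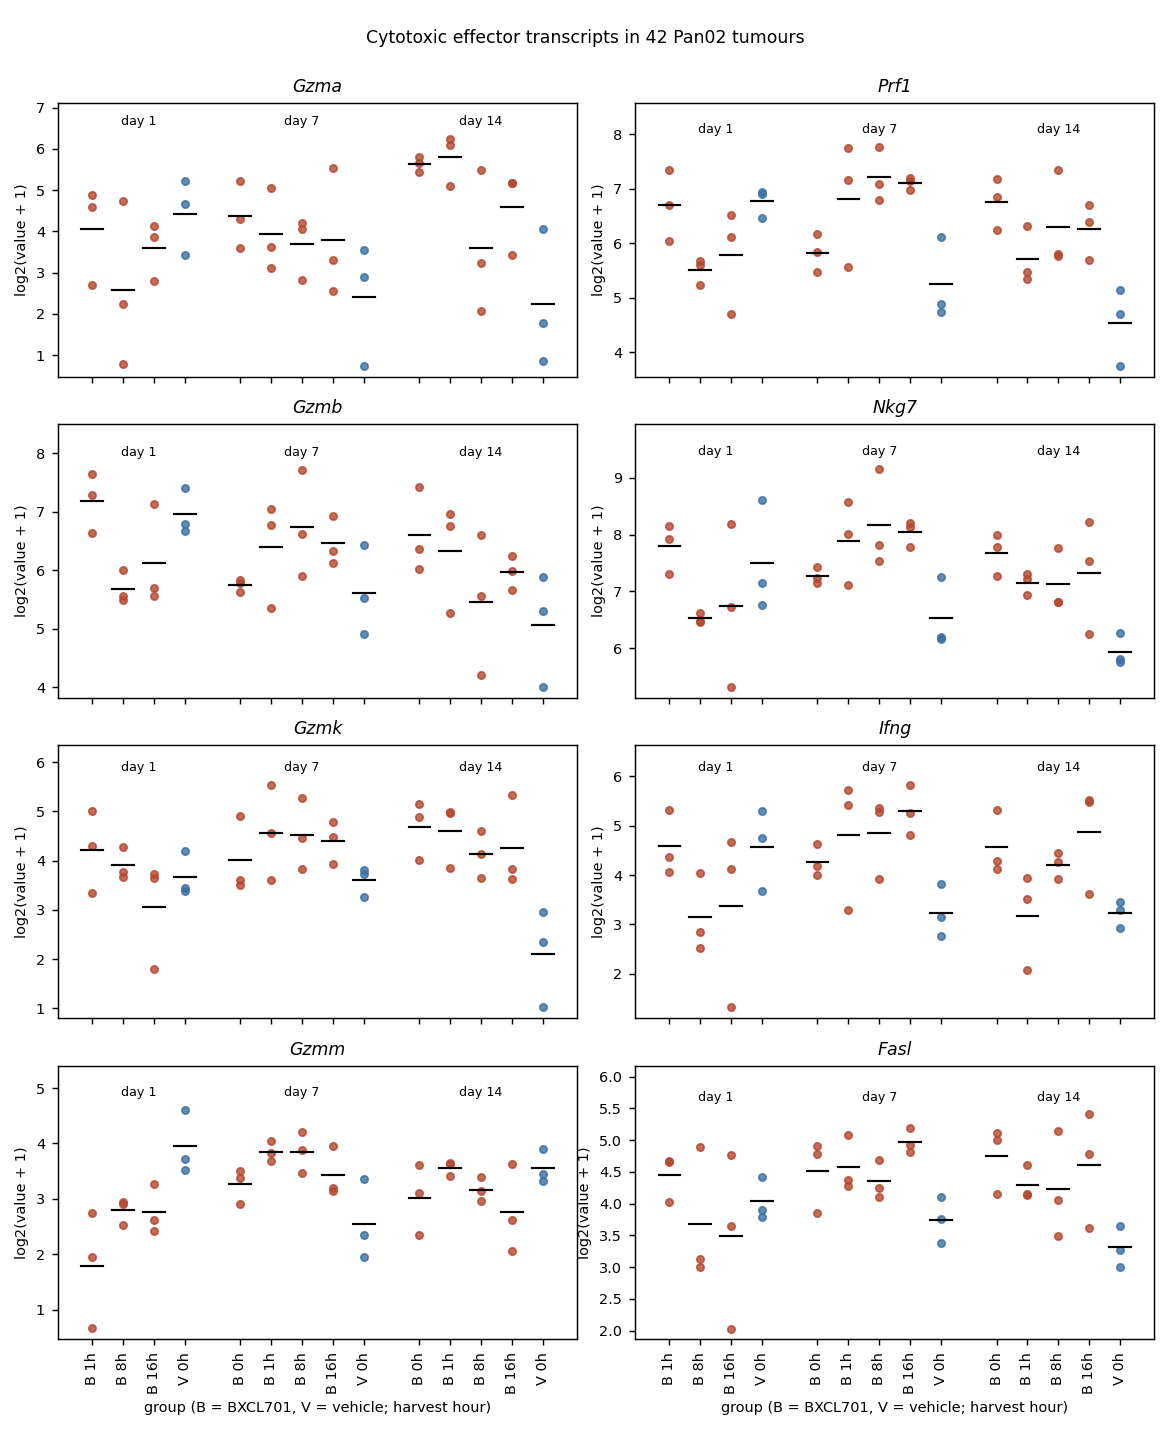
Each panel plots log2(scaled value + 1) of a gene for the 42 tumours, with groups by day and harvest hour along the horizontal axis (B, BXCL701; V, vehicle), points for animals and bars for group means. In the day 14 vehicle tumours Gzmk and Prf1 lie below all 12 BXCL701 tumours of that day, and Gzmm does not follow the other genes.

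On day 14, 3 of the 8 genes rose in BXCL701 tumours against vehicle tumours. They were the granzymes Gzma and Gzmk, both proteases of trypsin-like specificity, and the pore former Prf1. Over all tested genes, 2.26% rose in this comparison and 1.03% fell. An unadjusted p below 0.05 was found for 6 of the 8, beside 17.8% of all genes. The differences of the 8 genes had a median of 1.27 on the log2 scale, beside -0.01 for all tested genes, and 7 of the 8 were positive.

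Gzmk had a lowest scaled value of 11.4, a median of 20.0 and a highest of 39.3 in the 12 BXCL701 tumours of day 14, against 4.1, 1 and 6.7 in the 3 vehicle tumours. The groups did not overlap, which was so in the same direction for 0.843% of all tested genes. Its mean log2 value was 4.42 ± 0.63 (SD, n = 12) under BXCL701 and 2.10 ± 0.99 (n = 3) under vehicle, a difference of 2.32 ± 0.47 (SE, adjusted p = 0.00839, limma with Benjamini-Hochberg adjustment over 16613 genes).

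Prf1 ran from 39.8 to 162 with a median of 77.05 in BXCL701 tumours, against 34.2, 12.5 and 25.1 in vehicle tumours. Here too the groups did not overlap, and the difference was 1.73 ± 0.41 (adjusted p = 0.0168, limma). Gzma spread over a wider range within the BXCL701 tumours, with a lowest value of 3.2, a median of 38.65 and a highest of 74.1, against 2.4, 0.8 and 15.7 in vehicle tumours. The groups overlapped, since 3 of the BXCL701 tumours (8.3, 3.2 and 9.8) lay below the highest vehicle tumour. Its difference was the largest of the 8, at 2.67 ± 0.76 (adjusted p = 0.0447, limma).

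The vehicle group rests on 3 tumours, and replicate 2 had the lowest value for Gzma, Gzmb, Gzmk, Prf1 and Fasl. Without it 0 of the 8 genes passed. Gzmk then differed by 1.77 (adjusted p = 0.384) and Prf1 by 1.34 (adjusted p = 0.508), while Gzma differed by 1.99 (adjusted p = 0.702). The count of all genes that rose was 1 without this library, against 376 with it. Without replicate 1 it was 149, and 2 of the 8 genes passed (Gzmk and Prf1). Without replicate 3 it was 1167, and Nkg7 passed as well. The 3 calls were not equally firm. That of Gzma was lost when any of 9 of the 15 libraries was left out, 7 of them BXCL701 libraries with an adjusted p of 0.0534 to 0.0666, and that of Gzmk or Prf1 when 1 was. Of 25 alternatives, Gzma was called in 11, and Gzmk and Prf1 in 21 each. The 15 fits that each left out 1 library are among the 25, so the counts overlap with those just given. All 3 calls were lost with the libraries of the comparison alone, and with the T cell or NK cell marker mean in the model.

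The other 5 genes did not pass on day 14. Nkg7 ran from 74.7 to 298 with a median of 156 in BXCL701 tumours, against 52.8, 55.0 and 75.6 in vehicle tumours, so that 1 BXCL701 tumour lay just below the highest vehicle tumour. Its difference was 1.39 ± 0.43 (adjusted p = 0.0623, limma). Gzmb, the granzyme that cleaves after aspartate and activates caspases, had a median of 69.25 and a range of 17.5 to 171 in BXCL701 tumours, against 38.5, 15.1 and 58.3 in vehicle tumours. The groups overlapped and the difference was 1.02 ± 0.46 (adjusted p = 0.232, limma).

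Among the secreted and membrane ligands, Fasl had a median of 20.0 and a range of 10.3 to 41.4 in BXCL701 tumours, against 8.7, 7.0 and 11.6 in vehicle tumours. The groups overlapped and the difference was 1.16 ± 0.42 (adjusted p = 0.124, limma). Ifng had a median of 17.3 and a range of 3.2 to 45.2 in BXCL701 tumours, against 8.9, 10 and 6.6 in vehicle tumours. With BXCL701 tumours on both sides of the vehicle values, its difference was 0.98 ± 0.55 (adjusted p = 0.371, limma). Gzmm, which cleaves after methionine or leucine, was the exception in sign. It had a median of 8.65 in BXCL701 tumours against 9.8, 14.0 and 8.9 in vehicle tumours, a difference of -0.42 ± 0.37 (adjusted p = 0.612, limma).

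**Figure D2:**
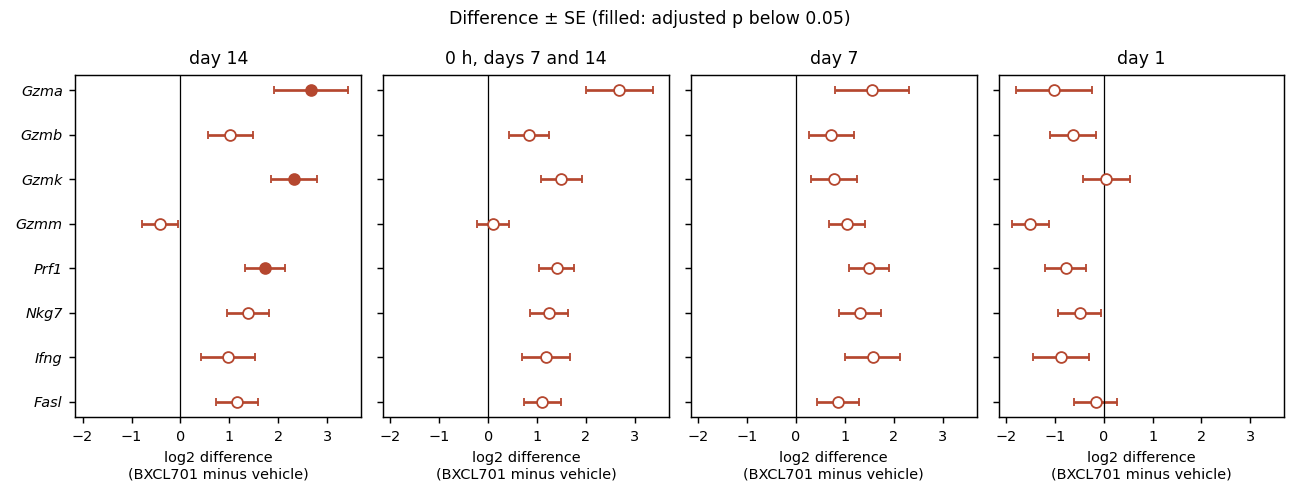
Log2 differences (BXCL701 minus vehicle, horizontal axis) with SE for the 8 genes in 4 comparisons, with filled points where the adjusted p was below 0.05. Filled points are Gzma, Gzmk and Prf1 on day 14, and on day 1 all genes but Gzmk lie left of 0.

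Each harvest hour of day 14 was also set, 3 tumours against 3, against the same vehicle tumours, which were taken at 0 h. Hour and treatment therefore cannot be told apart at 1, 8 and 16 h. By limma, Gzmk differed by 2.58 at 0 h (adjusted p = 0.0371) and by 2.50 at 1 h (adjusted p = 0.0346). It differed by 2.03 at 8 h (adjusted p = 0.0785, limma) and by 2.16 at 16 h (adjusted p = 0.103, limma). Its 3 BXCL701 tumours lay above the 3 vehicle tumours at every hour. This follows from the pooled groups of day 14 not overlapping (0.843% of all genes) and is no further result. Taken singly, the hours had such a separation for 6.69% of all genes at 0 h, 6.31% at 1 h, 6.8% at 8 h and 5.84% at 16 h. Prf1 passed at 0 h (2.23, adjusted p = 0.0371) and not at 1 h (1.18, adjusted p = 0.285), 8 h (1.78, adjusted p = 0.0746) or 16 h (1.73, adjusted p = 0.136). Gzma was 54.9, 42.2 and 49.0 at 0 h and 74.1, 67.4 and 33.5 at 1 h, but 8.3, 43.7 and 3.2 at 8 h and 9.8, 34.8 and 35.1 at 16 h. Its differences were 3.39 at 0 h (adjusted p = 0.0914), 3.58 at 1 h (adjusted p = 0.0666), 1.36 at 8 h (adjusted p = 0.583) and 2.36 at 16 h (adjusted p = 0.319). The shares of all genes that rose were 0.698% at 0 h, 0.506% at 1 h, 0.644% at 8 h and 0.0542% at 16 h.

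Markers of the cells that make these proteins moved in the same direction. The mean log2 value over 11 T cell markers was 6.91 ± 0.48 (SD, range 5.99 to 7.62) in the day 14 BXCL701 tumours, against 5.82 ± 0.96 (range 4.97 to 6.86) in the vehicle tumours. All 11 were higher and 3 rose, where 2.26% of all genes did, the CD8 co-receptor subunits Cd8a (1.44 ± 0.36, adjusted p = 0.0244) and Cd8b1 (1.45 ± 0.42, adjusted p = 0.0469) and the T cell surface receptor Cd6 (1.47 ± 0.39, adjusted p = 0.0333). The Cd8b1 call was lost when any of 12 of the 15 libraries was left out, and it was made in 7 of 25 alternatives (adjusted p up to 0.644). Cd8a was called in 20 of the 25 and Cd6 in 17. The mean over 7 NK cell markers (Ncr1, Klrb1c, Klre1, Klra8, Klrk1, Klrd1 and Eomes) was 4.35 ± 0.53 (range 3.29 to 5.09), against 3.54 ± 0.83 (range 2.92 to 4.49). Some of them were near the floor. Klra8 reached a scaled value of 10 in 3 of 42 libraries, Ncr1 in 21, Klre1 in 24 and Klrb1c in 32. Klrk1, Klrd1 and Eomes did so in all 42. Eomes is also counted among the effector transcription factors described below. Whether the RNA of Klrk1, Klrd1 and Eomes came from NK cells or from T cells was not tested. All 7 NK cell markers were higher under BXCL701 and 0 passed with limma, 3 of them at an unadjusted p below 0.05. Of all genes, 17.8% had such an unadjusted p. Among vehicle tumours of day 14, replicate 2 had the lowest T cell mean (4.97) and replicate 3 the highest (6.86). In bulk tumours, fewer cells of a type and less RNA per cell cannot be told apart.

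With the T cell marker mean added to the model as a covariate, 0 of the 8 genes passed on day 14. The Gzmk difference was then 1.61 ± 0.49 (adjusted p = 0.155), that of Gzma 1.71 ± 0.82 (adjusted p = 0.256) and that of Prf1 0.93 ± 0.38 (adjusted p = 0.201). Nkg7 (0.30 ± 0.31), Fasl (0.27 ± 0.38), Gzmb (0.14 ± 0.44) and Ifng (-0.02 ± 0.54) came within 1 SE of 0. With the NK cell marker mean instead, Gzmk differed by 2.17 ± 0.52 (adjusted p = 0.0745), Prf1 by 1.49 ± 0.44 (adjusted p = 0.161) and Gzma by 1.51 ± 0.67 (adjusted p = 0.429). Over the 25 alternatives tried for this comparison, the adjusted p ran from 0.00123 to 0.384 for Gzmk, from 0.00494 to 0.508 for Prf1 and from 0.00582 to 0.702 for Gzma. Of all tested genes, 3 rose in the model with the T cell mean and 9 in that with the NK cell mean.

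**Figure D3:**
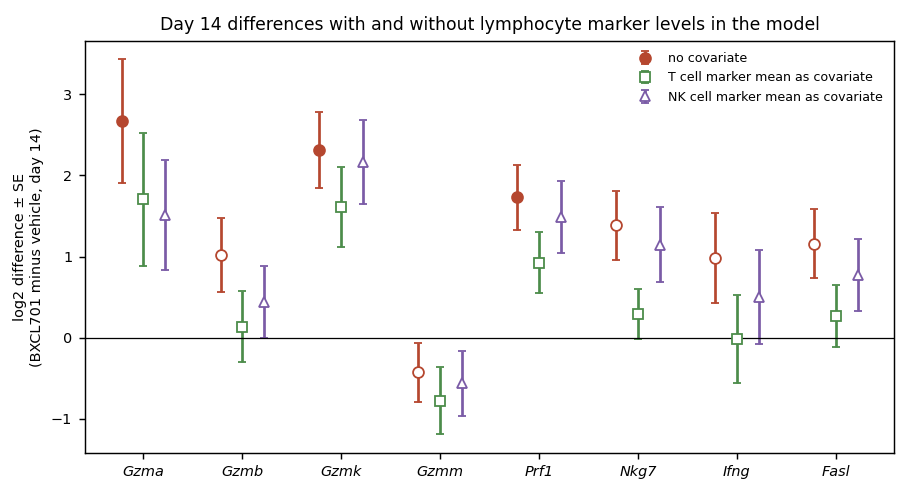
Log2 difference ± SE on day 14 (BXCL701 minus vehicle, vertical axis) for each gene without a covariate (circles), with the T cell marker mean (squares) and with the NK cell marker mean (triangles). Filled symbols have an adjusted p below 0.05. With the T cell covariate Nkg7, Ifng, Fasl and Gzmb lie near 0, and Gzma, Gzmk and Prf1 stay above it without passing.

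At 0 h, when treated and untreated tumours can be matched by hour, the 6 BXCL701 tumours of days 7 and 14 were set against the 6 vehicle tumours of those days. All 8 genes were higher and 0 passed with limma, 6 of them at an unadjusted p below 0.05, where 10.8% of all genes had such a p and 0.476% rose. Gzma was 11.1, 36.0 and 18.7 on day 7 and 54.9, 42.2 and 49.0 on day 14 in BXCL701 tumours, against 6.4, 10.7 and 0.7 on day 7 and 2.4, 0.8 and 15.7 on day 14 in vehicle tumours. It differed by 2.68 ± 0.68 (adjusted p = 0.0575), Prf1 by 1.40 ± 0.36 (adjusted p = 0.0632) and Gzmk by 1.49 ± 0.42 (adjusted p = 0.0878). In the same tumours all 11 T cell markers were higher, 8 at an unadjusted p below 0.05 and 0 after adjustment with limma, with a mean log2 value of 7.23 ± 0.28 under BXCL701 and 6.27 ± 0.83 under vehicle. The NK cell marker mean was 4.59 ± 0.20 under BXCL701 and 3.86 ± 0.66 under vehicle. Of 6 neutrophil markers, all higher, 4 rose, and the mean of the 6 was 7.98 ± 0.66 under BXCL701 and 6.35 ± 0.25 under vehicle. The calls of Mmp8 and Csf3r held whichever of the 12 libraries was left out. That of Ly6g was lost when any of 6 was left out, and the remaining call when any of 10 was. The part of T cells, NK cells and neutrophils was not tested beyond the models with T cell and NK cell means. Ifng did not overlap between the groups, at 15.0 or more in every BXCL701 tumour and 13.1 or less in every vehicle tumour, as was so in this direction for 0.596% of all genes. Its difference was 1.19 ± 0.50 (adjusted p = 0.339, limma).

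On day 7 all 8 genes were again higher in the 12 BXCL701 tumours than in the 3 vehicle tumours, and 0 passed with limma, 5 of them at an unadjusted p below 0.05, beside 9.87% of all genes. 1 of all tested genes rose, a share of 0.00602%. Prf1 ran from 43.3 to 217 with a median of 130 in BXCL701 tumours, against 68.5, 25.9 and 28.7 in vehicle tumours, a difference of 1.49 ± 0.41 (adjusted p = 0.386). Ifng had a median of 32.1 against 13.1, 7.8 and 5.8 in vehicle tumours (1.57 ± 0.55, adjusted p = 0.462). Gzmm was higher as well, with a median of 11.1 against 4.1, 2.9 and 9.2 (1.05 ± 0.37, adjusted p = 0.462). The T cell marker mean was 7.42 ± 0.38 under BXCL701 and 6.72 ± 0.46 under vehicle.

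After a single dose, pooled over 1, 8 and 16 h, the direction was the other way for 7 of the 8 genes. The vehicle tumours of day 1 were taken at 0 h, so hour and treatment cannot be told apart here. The hours were not alike. At 1 h 5 genes were higher than in vehicle tumours and 3 lower, with a median log2 difference of 0.11. At 8 h 7 were lower (median -1.21), and at 16 h all 8 were (median -0.83). In the pooled comparison 0 passed with limma, 1 at an unadjusted p below 0.05. 0% of all genes were called in either direction, and 2.63% had such an unadjusted p. The 1 gene was Gzmm, which was 0.6, 2.8 and 5.7 at 1 h, 6.7, 6.5 and 4.8 at 8 h and 8.6, 5.1 and 4.4 at 16 h after BXCL701, against 10.5, 23.4 and 12.2 in vehicle tumours of day 1. All 9 BXCL701 tumours lay below all 3 vehicle tumours, as was so in this direction for 0.0843% of all genes. In the FPKM table the groups overlapped, with a highest BXCL701 tumour at 0.529 FPKM and a lowest vehicle tumour at 0.469 FPKM. The difference was -1.50 ± 0.38 (unadjusted p = 0.000384, adjusted p = 0.906), and it was -2.17 ± 0.46 at 1 h alone (adjusted p = 0.87). Prf1 was 65.2, 104 and 161 at 1 h, 50.4, 36.5 and 47.6 at 8 h and 91.2, 68.0 and 25.1 at 16 h, against 122, 119.5 and 86.8 in vehicle tumours. Its values at 8 h lay below all vehicle values (17.3% of all genes did so), with a difference of -1.27 ± 0.51 (adjusted p = 0.279). At 8 h 4 genes had an unadjusted p below 0.05 (Gzmb, Gzmm, Prf1 and Ifng), where 16.5% of all genes did.

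The change of the BXCL701 difference between days was tested directly. Against day 1, the day 14 difference used the BXCL701 tumours of 1, 8 and 16 h only, the hours that both days have. It is therefore not the day 14 difference given above, which included those of 0 h. This day 14 difference minus the day 1 difference was positive for all 8 genes. With limma 0 passed, as did 0% of all genes, though 7 had an unadjusted p below 0.05, where 5.54% of all genes did. Prf1 had the lowest p of the 8 (2.34 ± 0.59, unadjusted p = 0.000416, adjusted p = 0.414). Between days 14 and 7 the change was 1.54 ± 0.66 for Gzmk (adjusted p = 0.269) and -1.47 ± 0.52 for Gzmm (adjusted p = 0.211), and 0 passed with limma (0% of all genes did), with 2 at an unadjusted p below 0.05, beside 15.6% of all genes.

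Vehicle tumours themselves had lower means of these transcripts at the later times, though no difference passed. On day 7 against day 1 all 8 genes were lower, with a median difference of -1.34 beside -0.01 for all genes, and 0 passed with limma. Gzmk was at -0.07 there, and its sign changed when some libraries were left out. On day 14 against day 1 all 8 genes were lower in vehicle tumours, with a median difference of -1.57 beside 0.00 for all genes, and 0 passed with limma. 5 had an unadjusted p below 0.05, where 12% of all genes did, and 0.00602% of all genes fell. Prf1 was 34.2, 12.5 and 25.1 on day 14 against 122, 119.5 and 86.8 on day 1 (-2.24 ± 0.51, adjusted p = 0.0897). Gzmb was 38.5, 15.1 and 58.3 on day 14 against 169, 101 and 110 on day 1 (-1.89 ± 0.58, adjusted p = 0.188). Gzmb, Gzmk, Prf1, Nkg7, Ifng and Fasl did not overlap between the days, as was so in this direction for 4.24% of all genes. This comparison shares the day 14 vehicle tumours with the treatment comparison of that day, so the results are not independent. The T cell marker mean of vehicle tumours was 5.82 ± 0.96 on day 14, 6.72 ± 0.46 on day 7 and 7.33 ± 0.66 on day 1.

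BXCL701 tumours of the same days were compared at matched hours. On day 14 against day 1, at 1, 8 and 16 h, 7 of the 8 genes were higher and 0 passed with limma, 2 of them at an unadjusted p below 0.05, where 18.1% of all genes had such a p and 0.572% rose. Prf1 differed by 0.10 ± 0.30 (adjusted p = 0.893), Nkg7 by 0.18 ± 0.31 (adjusted p = 0.793) and Gzma by 1.25 ± 0.55 (adjusted p = 0.225). Not matched by hour, Prf1 averaged 6.26 ± 0.66 on day 14 and 6.74 ± 0.79 on day 7 under BXCL701 (log2 values, SD, n = 12 each, 0 h included). On day 1, which has no 0 h group under BXCL701, it averaged 6.00 ± 0.80 (n = 9). At 1, 8 and 16 h alone the day 14 mean was 6.10 ± 0.65 (n = 9). Vehicle tumours, all taken at 0 h, averaged 4.53 ± 0.71 on day 14, 5.25 ± 0.75 on day 7 and 6.77 ± 0.27 on day 1. At 8 h against 0 h on days 7 and 14, 0 of the 8 genes passed (0.132% of all genes did) by limma, and none had an unadjusted p below 0.05, against 9.16% of all genes, with Gzma at -1.36 ± 0.68 (adjusted p = 0.552).

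The granzyme genes that neighbour Gzmb were followed over time as well, and no test compared them with Gzmb. Gzmc, Gzmd and Gzme are granzymes of activated mouse lymphocytes that have no human counterpart. Per length they were higher than Gzmb, at means of 22.2, 16.9 and 16.8 FPKM over the 42 libraries, against 3.30 FPKM for Gzmb. In BXCL701 tumours Gzmd, Gzme and Gzmg fell on day 14 against day 1 (0.698% of all genes fell). Gzmd ran from 18.6 to 364 with a median of 49.8 in the 9 tumours of day 14 taken at 1, 8 and 16 h, against a range of 121 to 841 and a median of 416 in the 9 of day 1. The log2 differences were -2.65 ± 0.59 for Gzmd (adjusted p = 0.021), -2.84 ± 0.64 for Gzme (adjusted p = 0.0219) and -2.83 ± 0.66 for Gzmg (adjusted p = 0.0269), beside -0.42 ± 0.34 for Gzmb (adjusted p = 0.525). Gzmc (-1.44 ± 0.43, adjusted p = 0.0805) and Gzmf (-0.47 ± 0.63, adjusted p = 0.728) did not pass. The Gzmg call was lost when any of 10 of the 18 libraries was left out (adjusted p up to 0.0698). The Gzmd and Gzme calls were lost without BXCL701 day 1 16 h replicate 3 or BXCL701 day 14 16 h replicate 2, with an adjusted p of 0.0653 and 0.0639 for Gzmd and of 0.0695 and 0.0697 for Gzme. With skin, muscle and fat markers as covariates none of the 3 passed, at -1.77 for Gzmd (adjusted p = 0.206), -1.71 for Gzme (adjusted p = 0.167) and -2.57 for Gzmg (adjusted p = 0.139).

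In vehicle tumours Gzmc to Gzmg were all lower on day 14 than on day 1, 4 of 5 at an unadjusted p below 0.05 and 0 after adjustment with limma. Of all genes, 12% had such an unadjusted p in this comparison. Gzmc was 81.7, 38.6 and 242 on day 14 against 428, 1054.6 and 693 on day 1 (-2.88 ± 0.75, adjusted p = 0.149). On day 14 against vehicle, 3 of the 5 were higher and 2 lower under BXCL701, and 0 passed with limma, with 0 at an unadjusted p below 0.05. Gzmd was -0.81 ± 0.81 and Gzme -1.13 ± 0.87 in that comparison, with vehicle replicate 3 high at 499 for Gzmd and 650 for Gzme. These genes share sequence, 21.9% of 50-base stretches for Gzmd, 20.6% for Gzme and 19.8% for Gzmg, so how their reads were divided is uncertain. Gzmb shares 0%. Gzmn did not pass the filter.

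**Figure D4:**
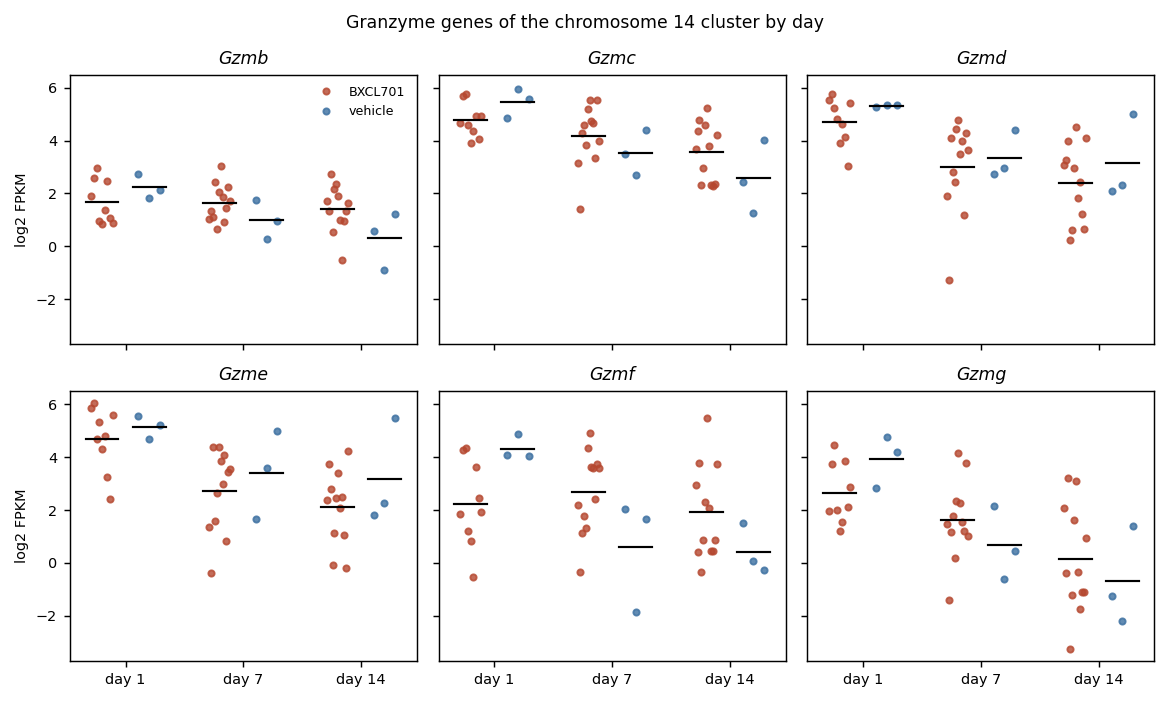
Log2 FPKM (vertical axis) of Gzmb and 5 neighbouring granzyme genes in each tumour on days 1, 7 and 14, BXCL701 left and vehicle right, with bars for means. The means of Gzmd, Gzme and Gzmg are lower on day 14 than on day 1 in both arms, and 1 vehicle tumour of day 14 stays high for Gzmd and Gzme.

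The machinery around the effectors was described by lists. All 12 genes of granule cargo and release were higher on day 14 with a median of 0.37, and 0 passed with limma, 4 at an unadjusted p below 0.05. In this comparison 17.8% of all genes had such a p, a share that applies to the other lists of this paragraph too. Rab27a, a GTPase that docks lytic granules, had the lowest p of the 12 (0.62 ± 0.20, adjusted p = 0.0703). Of the 10 effector transcription factors 5 were higher and 5 lower, and 0 passed with limma, 3 higher and 2 lower ones having an unadjusted p below 0.05. The median difference of the 10 was 0.007. Among the higher ones Tbx21, encoding T-bet, was at 1.68 ± 0.49 (adjusted p = 0.0505, limma), and Stat4 at 0.86 ± 0.26 (adjusted p = 0.0528, limma). Values of the lower ones are not quoted. Of 10 death receptors, ligands and their adaptors 0 passed with limma, 1 at an unadjusted p below 0.05, and Fas itself was at 0.12 ± 0.25 (adjusted p = 0.874). Of 5 serpins listed as granzyme inhibitors 1 rose, beside 2.26% of all genes, Serpina3g by 2.14 ± 0.43 (adjusted p = 0.00791). Its product is best known as an inhibitor of cathepsins. Serpinb9, the inhibitor of granzyme B, was at 0.10 ± 0.28 (adjusted p = 0.911).

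Of 13 measured cytokines and receptors that induce effector genes, 5 rose and 1 fell on day 14, when 2.26% of all genes rose and 1.03% fell. Those that rose included Il2rb (1.64 ± 0.39, adjusted p = 0.0171), the shared receptor chain for interleukins 2 and 15, Il15ra (1.12 ± 0.24, adjusted p = 0.00991), which presents interleukin 15, and Il27 (1.56 ± 0.40, adjusted p = 0.0256). Il18 fell by 0.78 (SE 0.17, adjusted p = 0.0124). Of 14 genes of the interferon gamma receptor and its targets, 6 rose and 0 fell, beside the same shares of all genes. Nlrc5 (1.47 ± 0.27, adjusted p = 0.00383) and Ciita (2.08 ± 0.43, adjusted p = 0.00948), the activators of MHC class I and class II genes, had the lowest p, and the chemokine Cxcl9 rose as well (1.91 ± 0.48, adjusted p = 0.0238). Ifng itself had not passed in this comparison.

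Other cell types also moved with day 14 treatment. All 6 neutrophil markers were higher and 3 rose, where 2.26% of all genes did, Mmp8 by 2.95 ± 0.42 (adjusted p = 0.00109), Csf3r by 1.34 ± 0.20 (adjusted p = 0.00109) and Ly6g by 2.82 ± 0.55 (adjusted p = 0.00673). Ly6g was low, reaching a scaled value of 10 in 6 of 42 libraries. Of 5 macrophage markers, all higher, Adgre1 rose by 0.58 ± 0.15 (adjusted p = 0.0244). Without vehicle day 14 replicate 2, Mmp8 alone of the list genes named here as changed on day 14 still passed (adjusted p = 0.0407). All 5 keratinocyte markers (median -1.60) and all 5 skeletal muscle markers (median -0.89) were lower and all 5 adipocyte markers were higher (median 0.77), with 0 passing with limma in each list and 0 at an unadjusted p below 0.05. Of 3 B cell, 4 mast cell, 5 tumour epithelium and 1 basophil markers 0 passed with limma, none of them at an unadjusted p below 0.05. The part of these cells in the values of the 8 genes was not tested, apart from the models with T cell, NK cell, skin, muscle and fat markers.

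Across the 42 tumours the members varied together to unequal degrees. Between Prf1 and Nkg7 Pearson's r was 0.85 and Spearman's rho 0.85, each with adjusted permutation p of 3e-05 and 4e-05 over 44 relations. The r was 0.85 without the 2 libraries farthest from the median and 0.68 within groups. Between Nkg7 and Ifng r was 0.83 and rho 0.85 (adjusted permutation p = 3e-05 and 4e-05), with 0.83 without 2 libraries and 0.78 within groups. Between Gzmb and Prf1 r was 0.76 and rho 0.77 (adjusted permutation p = 3e-05 and 4e-05), with 0.69 without 2 libraries and 0.75 within groups. The raw permutation p of these 3 relations was 1e-05, the smallest that 100000 resamples can give. The permutations shuffled all 42 libraries without regard to group, so each p also takes in shifts that a group shares. The r within groups carries no p. Gzma with the other members ranged in r from 0.08 to 0.48, and was at 0.05 with Gzmk within groups. Gzmm with the other members ranged in r from -0.02 to 0.30, and was at 0.47 with Nkg7 within groups.

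The members were also correlated with the mean of the T cell markers and with that of the NK cell markers. Nkg7 had r = 0.86 and rho = 0.89 with the T cell marker mean (adjusted permutation p = 3e-05 and 4e-05), 0.85 without 2 libraries and 0.80 within groups. With the NK cell marker mean Nkg7 had r = 0.46 and rho = 0.42 (adjusted permutation p = 0.004 and 0.01), 0.32 without 2 libraries and 0.23 within groups. Gzma had r = 0.64 and rho = 0.65 with the NK cell mean (adjusted permutation p = 1e-04 and 6e-05), 0.56 without 2 libraries and 0.62 within groups. With the T cell mean Gzma had r = 0.41 and rho = 0.27 (adjusted permutation p = 0.01 and 0.1), and r was 0.22 without 2 libraries, so that relation rests in part on those libraries, while it was 0.40 within groups. Whether these pairs of correlations differ was not tested.

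**Figure D5:**
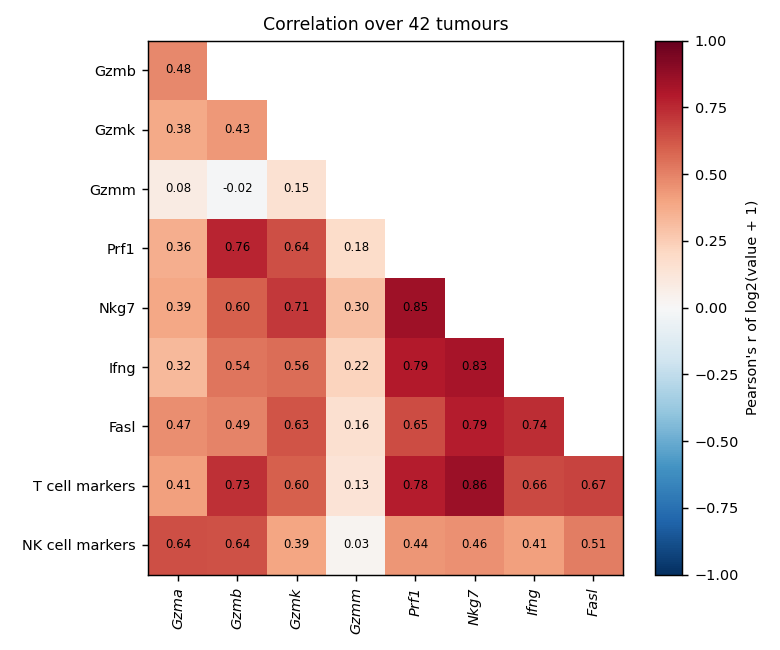
Pearson's r of log2(value + 1) over the 42 tumours between pairs of the 8 genes (columns and rows) and, in the bottom rows, with the mean of the T cell and NK cell markers. Gzmm has the palest column, Nkg7 is darkest with Prf1 and the T cell markers, and Gzma is darkest with the NK cell markers.

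The other tested genes most like each member were taken by r over the 42 tumours. For Prf1 they were Cd8b1 (0.85), Cd8a (0.84) and Gbp2 (0.84). For Nkg7 they were the immunoproteasome subunits Psmb9 (0.94) and Psmb8 (0.93) and the peptide transporter Tap1 (0.93). For Ifng they were Ifi47 (0.91), Irf1 (0.90) and Gbp2 (0.90), all interferon-induced. Gzmb was most like Mapkapk3 (0.75), Gzmg (0.74) and the T cell receptor subunit Cd3e (0.74). Gzmk was most like Stat2 (0.77), Il18bp (0.75) and the checkpoint receptor Pdcd1 (0.74), and Fasl was most like Pdcd1 (0.81), Tgtp1 (0.80) and H2-K1 (0.79). Gzma had lower values, for Gimap6 (0.71), H2-Q6 (0.71) and Sema4a (0.71). Gzmm was lowest, with Macrod1 (0.55), Rpph1 (0.54) and Pop5 (0.53).

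The mean of the 8 genes was most like Il18bp (0.92), the interferon-induced antagonist of interleukin 18, and AW112010 (0.90). H2-K1, H2-D1, Psmb9, Zbp1, Ly6i, Il12rb1, Tap1 and the lymphocyte receptor Cd96 followed at 0.87 to 0.88. These values describe the same 42 libraries, which share treatment groups, and carry no p.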

How the data were processed

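Bulk RNA-seq of 42 tumours in 14 groups of 3 animals was used. Per the submitters' processing notes, reads were trimmed with Trimmomatic 0.36, aligned with Bowtie 0.12.9 and referred to GRCm38. Quantifier, annotation and scaling were not given in the sources used here. In the deposited table of signal, per gene, values are non-whole estimated reads that, from the values, look scaled per library, so count models were not used. The deposited log2 table holds log2 FPKM by the authors. It served for per-length levels and, as log2(FPKM + 0.1), for an alternative. Columns matching no listed sample numbered 0. Genes with at least 10 in at least 3 libraries (16613 of 47729) were tested on log2(value + 1) with limma 3.58.1 (R 4.3.3), with 1 coefficient per group, 28 residual degrees of freedom, trended and robust variance, and Benjamini-Hochberg adjustment per comparison at 0.05. A fold on this scale understates changes of low genes. Replicates are separate animals with no stated pairing. The scripts were tested on simulated data.

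The members and lists were chosen with earlier results of these data known. Named were the 8 members everywhere, up to 4 passing genes of lowest p per list, and the 3 non-members most correlated with each member (10 for their mean). A list gene that this rule would name is not reported here. Values of list genes that did not pass are quoted for some, chosen after their values were seen. Gene positions and shared sequence come from GENCODE M21, promoters from RefSeq, in which all 8 symbols matched. Correlations used 100000 permutations. The transcript-length index is the slope of each library's deviation on transcript length. Alternatives were another scaling, no filter, a pseudocount of 5, the FPKM table, covariates, the comparison's libraries alone, and leaving out each replicate.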

Additional observations from a re-analysis of the deposited data

Results flagged for a closer look

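Gzmm in BXCL701 tumours of day 1 had a lowest library, 1 h replicate 1, at a log2 value of 0.66, which stood apart from the other 8 tumours. Nkg7 in vehicle tumours at 0 h on days 7 and 14 had a highest library, day 7 replicate 1, at 7.25, apart from the other 5. Of 40 groups examined, 2 had such a library, and chance flags about 1 in 20.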

How the results depend on the processing

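No paired analysis was possible because the replicate numbers follow accession order and pair no animals. Of the 8 genes, 3 passed on day 14. The number was 5 with the index of transcript length in the model, and 0 with the T cell mean, with the NK cell mean, or with the libraries of the comparison alone. At 0 h, where 0 passed, it was 1 with the FPKM table and 4 with the length index. With the length index 1 passed for vehicle day 14 against day 1 (Prf1, adjusted p = 0.0296) and 1 for BXCL701 day 14 against day 1 (Gzmm, adjusted p = 0.042). Leaving out each library gave 0 to 4 on day 14, 0 to 3 at 0 h and 0 to 2 for vehicle day 14 against day 1. Of all genes, 376 rose and 171 fell on day 14, against 1292 and 1676 with the length index, 3 and 0 with the T cell mean, 9 and 2 with the NK cell mean, 1 and 0 alone, and 564 and 454 without the 4 extreme libraries, a setting chosen after seeing the data. At 0 h 79 rose, against 393 with the length index, 130 with the FPKM table, 29 without the filter, 36 with tissue covariates and 3 without the 4 libraries. For BXCL701 day 14 against day 1, 95 rose and 116 fell, against 581 and 618 with the length index, 11 and 4 with tissue covariates and 207 and 319 alone.

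Log2 differences that changed sign were as follows. With the T cell mean, Ifng was -0.018 on day 14 and Gzmm -0.22 at 0 h. For day 14 minus day 7, Gzmb was -0.013, Prf1 -0.046, Nkg7 -0.31 and Fasl -0.015. For vehicle day 14 against day 1, Gzmm was 0.087, Ifng 0.031 and Fasl 0.51, for vehicle day 7 against day 1 Gzmk was 0.32 and Fasl 0.21, and for 8 h against 0 h Gzmk was 0.017. With the NK cell mean, Gzmm was -0.033 at 0 h, Gzmb -0.067 and Nkg7 -0.076 for day 14 minus day 7, and Gzmb 0.26 and Gzmk 0.071 for 8 h against 0 h. On day 1 Fasl was 0.0014 with the FPKM table, and Nkg7 0.070 and Fasl 0.026 without the 4 libraries. Nkg7 was -0.094 with the length index and Ifng -0.030 with tissue covariates for 8 h against 0 h, and Gzmk was 0.048 with tissue covariates for vehicle day 7 against day 1.

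Leaving out each library, signs changed within these ranges. Gzmm ran from -0.060 to 0.29 at 0 h. On day 1 Gzmk ran from -0.094 to 0.31, Nkg7 from -0.86 to 0.070 and Fasl from -0.38 to 0.076. For day 14 minus day 7, Gzmb ran from -0.23 to 0.71, Prf1 from -0.19 to 0.54 and Nkg7 from -0.28 to 0.27. Gzmk ran from -0.22 to 0.19 for vehicle day 7 against day 1. For BXCL701 day 14 against day 1, Prf1 ran from -0.079 to 0.22 and Nkg7 from -0.054 to 0.42. For 8 h against 0 h, Gzmb ran from -0.36 to 0.24, Gzmk from -0.20 to 0.21, Nkg7 from -0.078 to 0.33 and Ifng from -0.017 to 0.34. The cause was not tested. Depth is unknown, which limits the low genes Gzmm and Gzma most.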
